A study of Mus musculus with 2 samples.

Results

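The cell cycle genes of the adult mouse aorta were followed through 34 genes chosen by symbol, all of which were among the 32287 features of the count matrices. They were 11 genes of DNA replication and nucleotide supply (S phase: Mcm2, Mcm3, Mcm4, Mcm5, Mcm6, Mcm7, Pcna, Rrm1, Rrm2, Tyms and Tk1), 21 genes of G2 and mitosis (Mki67, Top2a, Cdk1, Ccnb1, Ccnb2, Ccna2, Birc5, Aurka, Aurkb, Bub1, Bub1b, Cenpa, Cenpe, Cenpf, Kif11, Kif23, Nusap1, Tpx2, Ube2c, Cdc20 and Plk1) and 2 genes whose transcripts rise with proliferation but are also made by resting cells (Stmn1 and Hmgb2, called broad below). A cell was called cycling when at least 5 of the 34 genes had 1 or more unique molecular identifiers (UMIs, the tags that count original RNA molecules). By that rule 179 of 6539 analysed cells were cycling in aorta 1 (2.74%) and 138 of 4614 in aorta 2 (2.99%).

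Before a cell copies its DNA, the MCM subunits load on the origins as the replicative helicase, Pcna forms the clamp that holds the polymerases, and the ribonucleotide reductase subunits Rrm1 and Rrm2, thymidylate synthase (Tyms) and thymidine kinase (Tk1) supply nucleotides. Entry into mitosis is driven by Cdk1 with its A and B cyclins, the aurora kinases and Plk1, while kinesins, centromere proteins and the spindle checkpoint proteins Bub1 and Bub1b move and monitor the chromosomes, and Cdc20 and Ube2c serve the ubiquitin ligase that ends mitosis. SMCs of the adult arterial media are known as largely quiescent cells, resident macrophages can renew themselves in place, and thymocytes pass through a burst of divisions between the rearrangements of their T cell receptor genes.

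Both libraries came from GFPiSMC mice on the C57BL/6J strain, the only group, so no genotype or treatment was compared. These mice carry Myh11-CreERT2, a tamoxifen-activated Cre made from the SMC promoter Myh11, and the mT/mG reporter, in which recombination replaces tdTomato with eGFP; both received tamoxifen at 1 mg per day for 5 days from 3 weeks of age. Thoracic aortas were taken at 12 weeks, each from 1 mouse, digested in the cold, and sorted as viable single cells without selection for GFP before droplet sequencing of transcript 3′ ends. P-values below therefore rest on 2 mice. Between types, the spread of a gene was estimated over 22 sums of UMIs together, 11 types in each aorta. That estimate treats sums of 1 mouse as independent, so it is not the spread between mice of 1 type. For cycling against other cells of a type, it came from 4 sums with aorta as a term.

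The matrices held 8947 and 6263 cells with 47009780 and 30919996 UMIs in aortas 1 and 2. The labels give 6278 and 4300 cells after filtering, and the filters used here left 6744 and 4698 cells, of which 205 and 84 were set aside as predicted doublets. Median depth of the analysed cells was 5671 and 5396.5 UMIs, and the libraries shared 18 barcodes, which are separate cells by library. The cells formed 28 clusters that were named from marker genes and grouped into 11 types, without using the cycle genes, and the naming rule was settled after the cluster tables had been seen. The unnamed clusters, 211 and 160 cells, had enough markers of a type. They stayed unnamed because markers of another type led their top genes, or because they were shallow with no marker of their own type among those genes. The labelled tissue was checked against its markers, and 33.5% and 34% of cells were SMCs with Myh11, Acta2 and Tagln. The samples also held immune cells and a cluster, called thymocyte-like here, led by Dntt, Arpp21, Rag1, Hist1h1b, Trbc2, Hist1h2ap, Ccr9, Trbc1, Cd8b1 and Cd8a, which are genes of immature T cells and 2 histone genes of replicating cells.

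Among the named types the largest share of cycling cells was in the thymocyte-like cluster, followed by macrophages and, in aorta 1 and in the mean of the 2 aortas, T cells, while an unnamed cluster led by Ccr2 had 15.5% and 14.8%, and in SMCs, fibroblasts and blood endothelial cells it was at most 1.40%. Among thymocyte-like cells, 31 of 148 in aorta 1 (20.9%, exact 95% binomial interval 14.7 to 28.4%) and 19 of 87 in aorta 2 (21.8%, 13.7 to 32.0%) were cycling. Macrophages had 68 of 809 (8.41%, 6.59 to 10.5%) and 50 of 483 (10.4%, 7.78 to 13.4%). T cells had 16 of 300 (5.33%) and 5 of 138 (3.62%). In both aortas every thymocyte-like share lay above every macrophage share, and every macrophage share above every T cell share. Intervals cover counting error only, and with 2 aortas per type an exact two-sided permutation test cannot go below p = 0.333, so no test was made between shares.

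SMCs had 15 cycling cells of 2193 in aorta 1 (0.684%, 0.383 to 1.13%) and 22 of 1571 in aorta 2 (1.40%, 0.880 to 2.11%). Fibroblasts had 5 of 1621 (0.308%) and 12 of 1143 (1.05%), and blood endothelial cells 10 of 738 (1.36%) and 5 of 653 (0.766%). The shares of these 3 wall types overlapped between aortas. Within each aorta SMCs had a larger share than fibroblasts, whereas blood endothelial cells were highest of the 3 in aorta 1 and lowest in aorta 2. In cells thinned to equal depth (below) fibroblasts instead lay above SMCs in both aortas, on few cycling cells. The order of SMCs and fibroblasts thus changed with depth, and none is given. Mesothelial cells, the outer lining, had 7 of 274 (2.55%) and 5 of 157 (3.18%), and B cells 2 of 128 (1.56%) and 4 of 99 (4.04%). Lymphatic endothelial cells had 1 cycling cell in each aorta, of 46 and of 75, and erythroid cells 1 of 24 and 0 of 13. No monocyte or neutrophil of 47 and 35 was cycling, which allows shares of up to 6.38% and 8.57% at 3 counts of the total (exact upper limits 7.55% and 10.003%), at a median depth of only 1716 and 1726 UMIs. The cells given this name changed with the filter, and with 5000 to 25000 UMIs 20 of 101 (19.8%) and 10 of 56 (17.9%) were cycling and with doublets kept 11.2% and 10.5%.

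**Figure D1:**
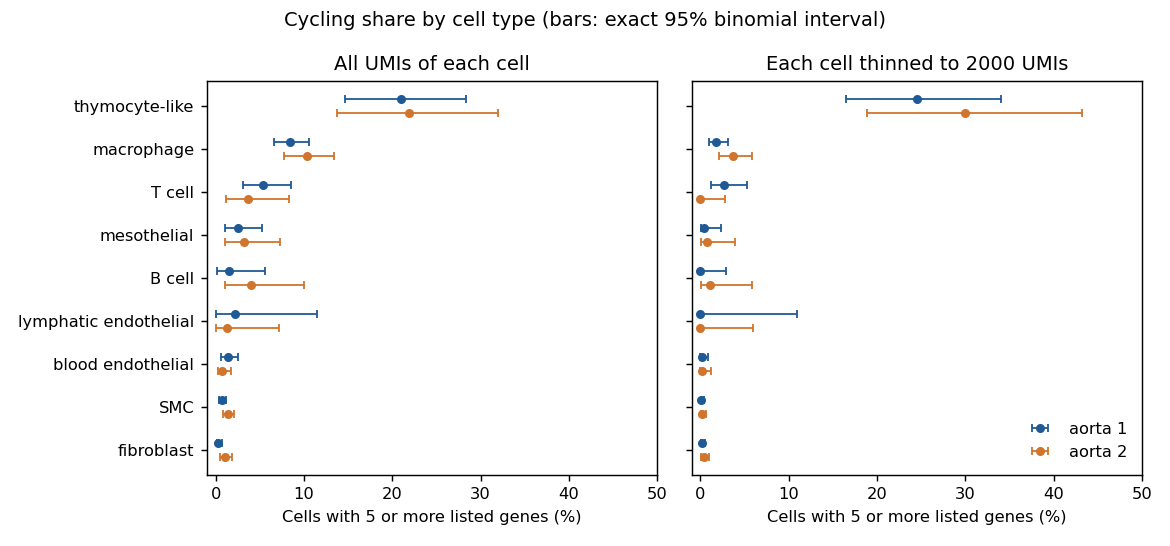
Share of cells with 5 or more listed genes (x axis, percent) in each cell type (y axis) for aorta 1 and aorta 2, with exact 95% binomial intervals as bars; the left panel uses all UMIs and the right panel cells thinned to 2000 UMIs. Thymocyte-like cells lie at 20.9% and 21.8% on the left and 24.5% and 30% on the right, whereas macrophages move from 8.41% and 10.4% to 1.82% and 3.66%.

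The count of detected genes rises with depth, and the types differed in depth: median UMIs were 2282 and 2394 in thymocyte-like cells and 7846 and 7596 in SMCs. After each cell was thinned to 2000 UMIs, 25 of 102 (24.5%) and 18 of 60 (30%) thymocyte-like cells were cycling, with 46 and 27 shallower cells left out. The macrophage shares were then 13 of 716 (1.82%) and 16 of 437 (3.66%), and the T cell shares 8 of 297 (2.69%) and 0 of 130, which allows up to 2.31% at 3 counts of the total (exact upper limit 2.80%). Only 2 of 1900 (0.105%) and 3 of 1380 (0.217%) SMCs remained past the threshold, and 2 of 1530 (0.131%) and 4 of 1066 (0.375%) fibroblasts. The thymocyte-like share was thus the highest at either depth, macrophages stayed above SMCs and fibroblasts in both aortas, and T cells and macrophages changed order in aorta 1.

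Cycling shares differed between the macrophage clusters, with no test made. In the cluster led by Mrc1, F13a1, Folr2 and Cd163, genes of resident macrophages, 5.67% and 7.18% of cells were cycling, and 1.13% and 3.10% after thinning. A smaller cluster led by Mmp12 and MHC class II genes such as H2-Eb1 and H2-Ab1 reached 11.3% and 17.3%, and 4.46% and 8.11% after thinning. The cluster led by Slpi, Saa3, Prg4 and Marco reached 25% in each aorta, but its median depth was 15228.5 UMIs and only 2.70% and 0% remained after thinning. The Mmp12 cluster had the highest thinned share in both aortas, but on few cells, 5 of 112 and 6 of 74. The Mrc1 cluster had 6 of 530 and 10 of 323, and the Slpi cluster 2 of 74 and 0 of 40.

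Cells past the threshold were not alike between types. The 50 cycling thymocyte-like cells of both aortas had a median of 23.5 of the 34 genes and a maximum of 34, and 36 of them had at least 3 S phase and 3 G2 and M phase genes. In 42 of the 50, Mki67, the classic marker of dividing cells, or Top2a, the topoisomerase that untangles replicated DNA, was detected, and their median depth was 8221 UMIs against 2172 in the other cells of the cluster. Only 2 of them had exactly 5 genes, and 9 thymocyte-like cells lay just outside with 4. The 118 cycling macrophages had a median of 6 genes, 44 sat at exactly 5 while 122 others had 4, and 38 had at least 3 G2 and M phase genes. Their median depth was 8685 UMIs against 5059.5 in other macrophages.

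The 37 cycling SMCs had a median of 5 genes, and 21 had exactly 5, with 91 SMCs just outside at 4. In 18 of the 37 no G2 and M phase gene was detected, 35 had at least 3 S phase genes, and 8 had at least 3 G2 and M phase genes, 2 in aorta 1 and 6 in aorta 2. eGFP, the mark of recombined Myh11 lineage, was detected in 35 of the 37 and in 97.7% of other SMCs, and the median depth was 12207 against 7693 UMIs. Cells named SMC with 3 or more G2 and M phase genes were thus few, although 1 in aorta 2, with 22383 UMIs, carried 30 of the 34 genes. Cycling SMCs of aorta 2 also held markers of T cells and thymocytes (below), and the part of this cell in them was not tested.

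**Figure D2:**
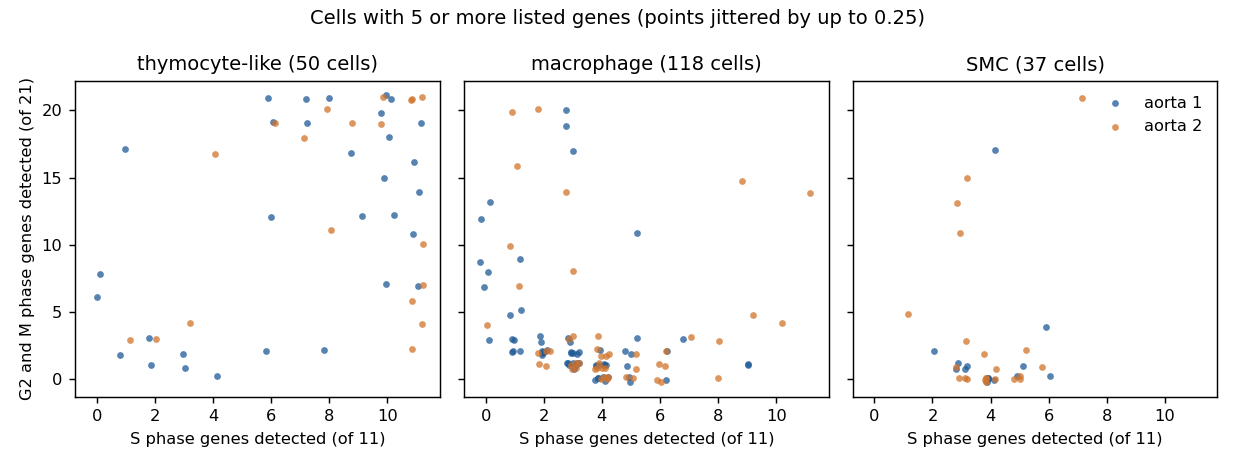
Each point is a cycling cell, placed by how many of the 11 S phase genes (x axis) and of the 21 G2 and M phase genes (y axis) were detected, jittered by up to 0.25, for thymocyte-like cells, macrophages and SMCs of aorta 1 and aorta 2. The 50 thymocyte-like cells spread to the upper right, with 36 at 3 or more of both, whereas 18 of the 37 SMCs lie at 0 G2 and M phase genes.

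Markers of other cell types moved with the cycling wall cells. In cycling SMCs of aorta 2 all 7 T cell markers were detected and summed to 454 CPM (counts of a gene or list per 1000000 UMIs of the same cells) against 5.91 CPM in other SMCs, and 5 of 6 thymocyte markers summed to 288 against 3.71 CPM. In aorta 1 both lists were at 0 in cycling SMCs. In cycling fibroblasts macrophage markers summed to 799 and 1531 CPM in aortas 1 and 2 against 67.5 and 63.4 CPM in other fibroblasts, and T cell markers to 0 and 1084 against 17.9 and 17.0 CPM. At least 3 different markers of another lineage were found in 5 of 17 cycling fibroblasts, against 1.67% of the others, and in 3 of the 8 fibroblasts with 3 or more G2 and M phase genes. In SMCs the same held for 2 of 37 cells against 0.805%, and for 1 of the 8. Leaving such cells out, a choice made after seeing these data, lowered the mean share of the 2 aortas from 0.679 ± 0.524% (SD) to 0.482 ± 0.326% in fibroblasts and from 1.04 ± 0.507% to 0.987 ± 0.421% in SMCs, and left thymocyte-like cells at 21.5% and macrophages at 9.02%.

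In UMIs summed per aorta and type, the 21 G2 and M phase genes together stood at 4293 and 4806 CPM in thymocyte-like cells. They were at 215 and 314 CPM in macrophages and at 14.6 and 40.9 CPM in SMCs, with fibroblasts at 23.6 and 29.0 CPM. T cells had 324 CPM in aorta 1 and 48.9 CPM in aorta 2, whereas B cells had 88.5 and 517 CPM, so in these 2 types the level differed between the mice and in opposite directions. The 11 S phase genes covered a narrower range, 1827 and 2002 CPM in thymocyte-like cells, 194 and 264 CPM in macrophages, and 124 and 137 CPM in SMCs. In such sums more cycling cells and more RNA per cycling cell cannot be told apart.

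**Figure D3:**
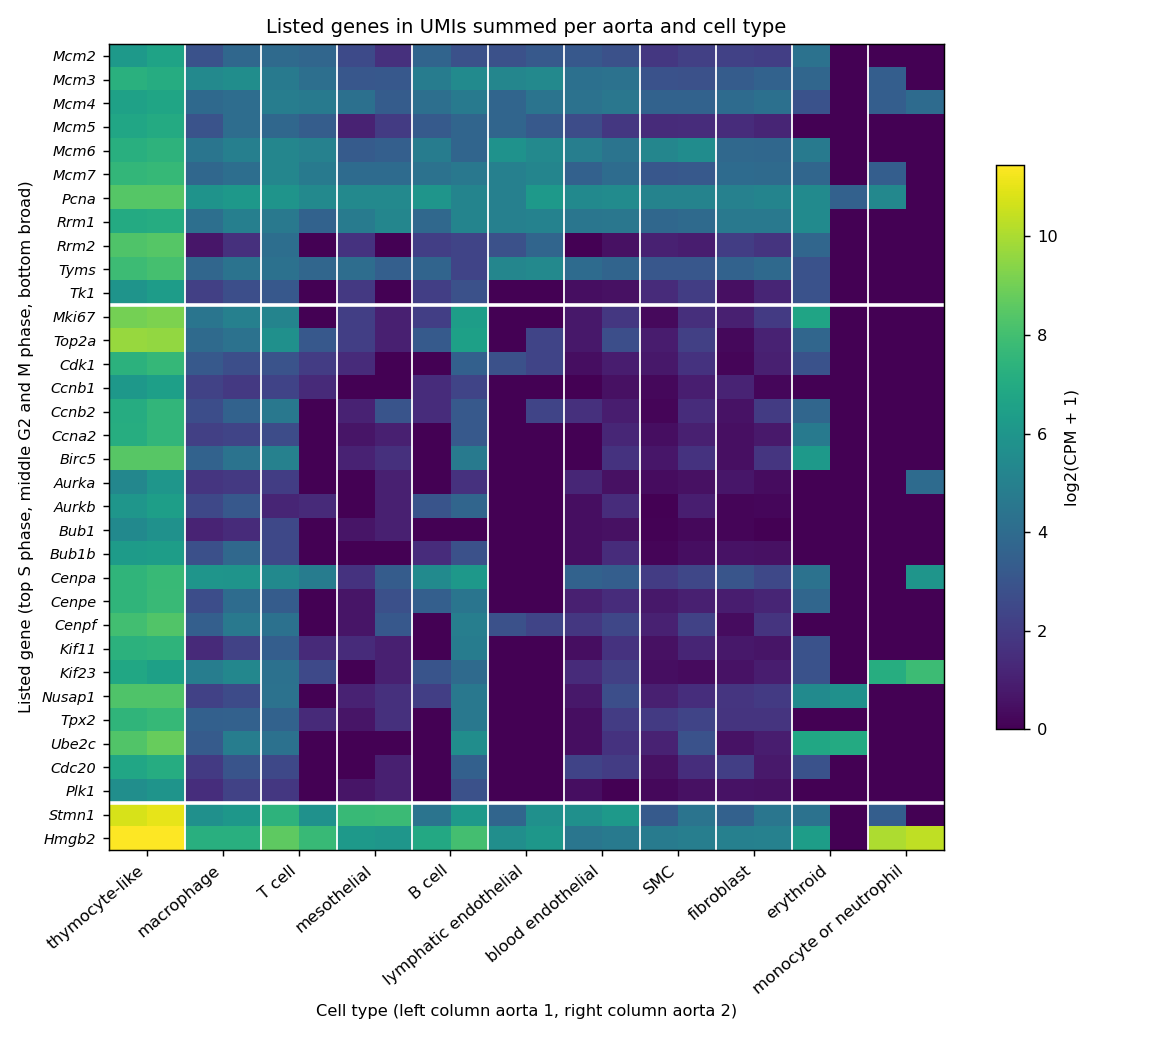
Level of each listed gene (rows: S phase at the top, G2 and M phase in the middle, Stmn1 and Hmgb2 at the bottom) in UMIs summed per cell type, 1 column for each aorta, coloured by log2(CPM + 1). The thymocyte-like columns are the brightest in the S phase and G2 and M phase blocks, and most G2 and M phase rows are near 0 in SMCs and fibroblasts.

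How strictly a gene kept to cycling cells followed its role only in part. The cycling cells, 2.74% and 2.99% of all, held 94.8% and 95.8% of Mki67 UMIs, 95.7% and 96.7% of Top2a, 95.7% and 97.5% of Ccnb2, a B cyclin, 96.3% and 95.5% of Birc5, the survivin of the chromosomal passenger complex, and 97.8% and 100% of Bub1. These genes also set the rule, so the shares describe them and test nothing. The G2 and M phase genes that kept least to cycling cells were Cenpa, the centromeric histone H3 (40.6% and 49.9%), and Kif23, a kinesin of cytokinesis (45.1% and 46.1%). Macrophages held 43.5% and 39.5% of the Cenpa UMIs and 48.2% and 55.3% of those of Kif23.

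S phase genes mostly lay outside cycling cells. Mcm6 had the lowest share in cycling cells, 17.4% and 17.8%, and 52.4% and 59.1% of its UMIs were in SMCs. Mcm4 followed with 18.6% and 18.9%, Rrm1 with 20% and 22.4%, and Pcna with 21.4% and 24.1%. Rrm2, the regulatory subunit of ribonucleotide reductase, went against its partner Rrm1 with 79.6% and 85.6%, and 64.8% and 72.3% of its UMIs were in thymocyte-like cells. Mcm5 (56.1% and 66.1%) and Tk1 (63.6% and 74.3%) lay between, and Mcm2, Mcm3, Mcm7 and Tyms ranged from 28.3% to 50.8%. Of the broad genes, Stmn1, which destabilizes microtubules, had 60.6% and 67.5% and Hmgb2, a chromatin protein, 57.0% and 58.0%. The other 14 G2 and M phase genes lay between 62.3% and 97.5%.

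**Figure D4:**
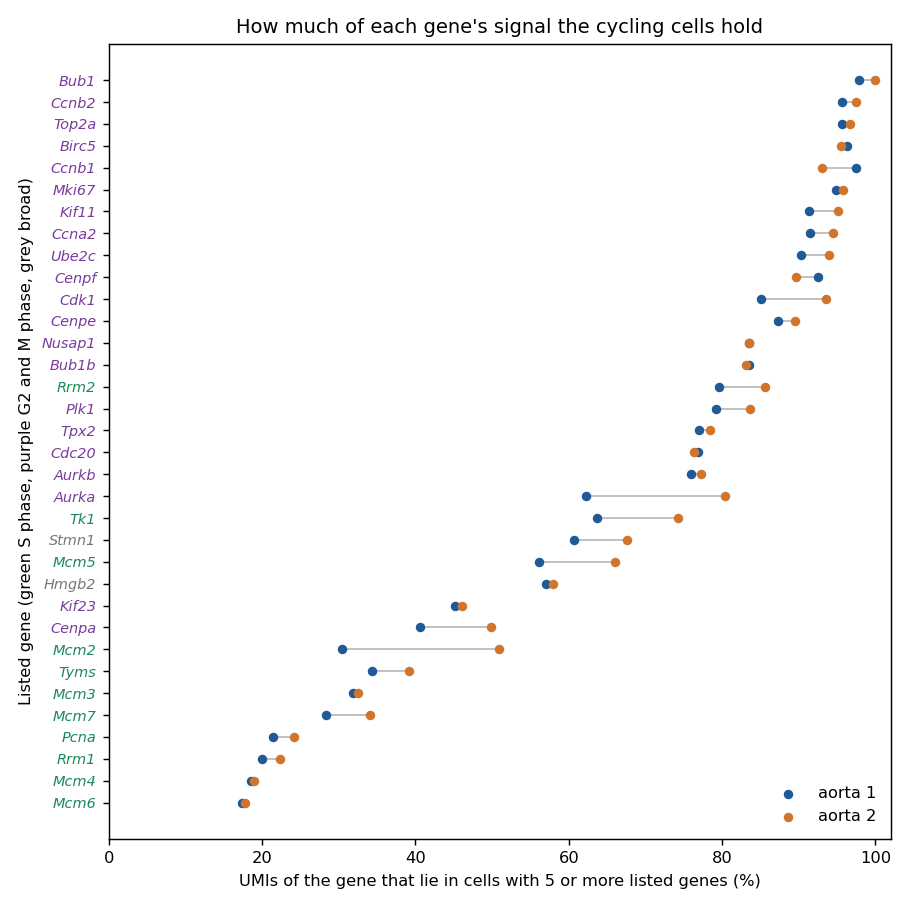
Percentage of the UMIs of each listed gene (y axis) that lay in cells with 5 or more listed genes (x axis), with 1 point for each aorta. Of the G2 and M phase genes, Cenpa and Kif23 lie lowest, between 40.6% and 49.9%, and S phase genes spread from 17.4% for Mcm6 to 85.6% for Rrm2.

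The bases before the start sites of the listed genes were searched in promoter windows from RefSeq (GRCm38.p6, 250 bases before to 50 after the start), which matched 29 of the 34 genes; Ccna2, Aurkb, Tpx2, Mcm4 and Stmn1 were not matched. On either strand CCAAT was in 16 of 18 G2 and M phase and 8 of 10 S phase windows, against 37.9% of the windows of all 27025 genes. TTTGAA, the letters known from cell cycle homology regions, was in 13 of 18 G2 and M phase and 1 of 10 S phase windows, against 18.1% of all. Any of the E2F-like strings TTTCCCGC, TTTGGCGC and TTTCGCGC was in 4 of 10 S phase windows (Mcm3, Mcm5, Mcm6 and Mcm7) and 1 of 18 G2 and M phase windows (Cdk1), against 1.91% of all; alone they were in 1.11%, 0.537% and 0.318% of all windows, and TTTGGCGC and TTTCGCGC can overlap when one lies on the other strand. The genes of a role were chosen for their function, and a match of letters is a description. The 150 bases before the start, in the direction of the gene, are shown for 5 genes, those with the most UMIs in their role after Cenpa and Pcna, whose stretch overlaps an annotated transcript of the gene, and Stmn1, which had no window, were passed over, to set the S phase gene found mostly in SMCs beside the mitotic genes found almost only in cycling cells; capitals mark these strings on either strand (CCAAT reads ATTGG and TTTGAA reads TTCAAA on the other). In Mcm6 the run TTTGGCGCGAAA is TTTGGCGC overlapping TTTCGCGC of the other strand.
Top2a, chr11:99024190-99024339, minus strand: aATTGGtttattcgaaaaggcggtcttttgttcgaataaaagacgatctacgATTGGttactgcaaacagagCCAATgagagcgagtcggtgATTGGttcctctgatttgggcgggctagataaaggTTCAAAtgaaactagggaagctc
Mki67, chr7:135716380-135716529, minus strand: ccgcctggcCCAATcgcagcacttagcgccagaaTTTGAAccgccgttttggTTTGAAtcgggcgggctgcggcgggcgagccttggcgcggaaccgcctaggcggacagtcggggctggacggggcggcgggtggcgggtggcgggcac
Mcm6, chr1:128359706-128359855, minus strand: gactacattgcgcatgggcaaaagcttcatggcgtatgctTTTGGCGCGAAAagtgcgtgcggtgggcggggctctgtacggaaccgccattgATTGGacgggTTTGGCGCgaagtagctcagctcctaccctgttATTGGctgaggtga
Rrm1, chr7:102441545-102441694, plus strand: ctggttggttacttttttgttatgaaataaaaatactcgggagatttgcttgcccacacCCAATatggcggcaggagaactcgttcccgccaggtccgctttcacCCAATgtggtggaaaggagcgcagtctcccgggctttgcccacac
Hmgb2, chr8:57511693-57511842, plus strand: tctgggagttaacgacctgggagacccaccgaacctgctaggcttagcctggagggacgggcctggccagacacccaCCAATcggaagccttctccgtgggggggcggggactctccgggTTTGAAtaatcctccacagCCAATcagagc
Top2a and Mki67 held CCAAT and TTTGAA, Rrm1 held CCAAT alone, and Hmgb2, which resting cells also make, held both. In the mouse annotation the 34 genes lie on 15 chromosomes, Mki67 at chr7:135689784-135716361 and Top2a at chr11:98992943-99024189, for example. An antisense gene overlaps 11 of them (Tnnc2 at Ube2c and Oip5 at Nusap1, for example), 7 overlap a noncoding gene on their own strand, and none overlaps a protein-coding gene on its own strand.

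Thymocyte-like cells were compared with T cells, the mature cells of the same lineage, to ask whether the whole list or a part of it differed. All 34 genes were called higher in thymocyte-like cells (edgeR quasi-likelihood test on the sums, adjusted p under 0.05 and a log2 fold change over 1), where 7.04% of the 12048 genes tested were called higher and 17.2% either way. The median log2 fold change was 3.68 over the 34 genes and -0.07 over all genes. DESeq2 called 29 of the 34, without Mki67, Ccnb2, Birc5, Cenpf and Ube2c.

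Mitotic genes differed most. Mki67 was at 538 and 584 CPM in thymocyte-like cells of aortas 1 and 2 and at 35.3 and 0 CPM in T cells (log2 fold change 3.99 ± 0.44 SE, adjusted p = 1.5e-08). Top2a was at 813 and 778 CPM against 52.3 and 7.89 CPM (3.85 ± 0.36). Ccna2, cyclin A2, was at 141 and 183 CPM against 5.23 and 0 CPM (4.90 ± 0.53). Aurkb, the kinase of the chromosomal passenger complex, stood at 63.5 and 84.7 CPM, while its T cell levels of 1.31 and 1.58 CPM came from 2 and 1 UMIs. The 21 G2 and M phase genes had a median of 4.0, and in none did the aortas of the 2 types overlap.

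Genes of replication followed with a median of 2.15 over 11. Rrm2 stood at 309 and 341 CPM in thymocyte-like cells against 16.3 and 0 CPM in T cells (4.31 ± 0.36), while Pcna was at 340 and 339 against 59.5 and 41.0 CPM (2.13 ± 0.20, adjusted p = 2.2e-10) and Mcm4 had the smallest change, 1.35 ± 0.25. Both broad genes differed as well, Hmgb2 with 2758 and 2794 CPM against 385 and 208 CPM (2.63 ± 0.20) and Stmn1 with 1749 and 2081 CPM against 167 and 53.7 CPM (3.39 ± 0.29). The T cell sum of aorta 2 had no UMI for 15 of the 34 genes, and in a fit without aorta 1 the median was 6.14 rather than 3.68.

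Macrophages were compared with SMCs next. Of the 34 genes, 27 were called higher in macrophages and none lower, where 21.5% of all genes were called higher and 42.7% either way. All 21 G2 and M phase genes, 4 of 11 S phase genes (Mcm2, Mcm3, Mcm5 and Tyms) and both broad genes were among the 27. The median log2 fold change was 3.00 for G2 and M phase genes, 0.88 for S phase genes and 0.00 over all genes. DESeq2 called 20 of the 34, 14 of them G2 and M phase genes.

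The largest difference was that of Kif23, 27.8 and 38.6 CPM in macrophages against 0.360 and 0.259 CPM in SMCs (6.50 ± 0.36, adjusted p = 3.9e-17), though SMC values there rest on 6 and 3 UMIs. Cenpa was at 60.9 and 59.0 against 3.06 and 4.41 CPM (4.02 ± 0.22) and Bub1b, a kinase of the spindle checkpoint, at 5.85 and 13.6 against 0.120 and 0.346 CPM (5.16 ± 0.57). As shown above, Kif23 and Cenpa were the 2 mitotic genes with most UMIs outside cycling cells. Mki67 was at 20.8 and 30.8 against 0.240 and 1.90 CPM (4.68 ± 0.56).

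Replication genes were mixed between macrophages and SMCs. Mcm3 was at 41.0 and 47.8 CPM in macrophages against 6.42 and 6.22 CPM in SMCs (2.78 ± 0.16), and Mcm5 at 6.66 and 15.9 against 1.62 and 1.73 CPM (2.62 ± 0.35). Mcm6, a subunit of the same helicase, pointed the other way, 20.8 and 29.5 against 37.2 and 46.7 CPM (-0.78 ± 0.17, past the p threshold but not the fold threshold). Pcna at 57.9 and 68.1 against 33.6 and 33.6 CPM (0.88 ± 0.14) also stayed under the fold threshold, and Rrm2 was low in both (0.605 and 2.03 against 1.08 and 0.864 CPM).

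Of the 5 types compared with SMCs, Mcm6 was called lower in fibroblasts and mesothelial cells. It was not called in blood endothelial cells, macrophages or T cells. Against the same SMC values it was lower in fibroblasts, 13.7 and 13.1 CPM (-1.79 ± 0.16, adjusted p = 1.1e-11), and in mesothelial cells, 8.85 and 9.93 CPM (-2.39 ± 0.28, adjusted p = 5.9e-09). The 2 aortas did not overlap between types in either comparison. The other 5 MCM subunits were not called in these 2 comparisons.

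Other differences of the wall cells from SMCs were few. In fibroblasts 4 of 34 genes were called, Rrm2 higher (3.17 and 2.30 against 1.08 and 0.864 CPM, 1.30 ± 0.46) and Mcm6, Tk1 and Ube2c lower, against 24.6% of all genes. Of all genes called there, 59.3% were higher in fibroblasts, and 75.8% with DESeq2 size factors, which shifted the median of all genes by 0.38. With aorta as a block 6 were called, Top2a (-1.82) and Cdk1 (-1.56) being added as lower. The Ube2c call (-2.49 ± 0.89) rested on 5 and 6 UMIs in fibroblasts, and it was lost in 5 of 10 alternative settings, DESeq2 among them. Blood endothelial cells had 5 genes higher and 1 lower of 34, against 29.0% of all genes: Stmn1 at 52.4 and 69.0 against 8.40 and 20 CPM (1.92 ± 0.32), Mcm3 at 17.6 and 18.8 against 6.42 and 6.22 CPM (1.29 ± 0.21), Cenpa (1.31 ± 0.34), Kif23 (2.59 ± 0.71) and Mcm2 (1.04 ± 0.37) higher, and Tk1 lower, on 1 UMI in each aorta. In mesothelial cells 3 of 34 were called, against 28.1% of all genes. Besides Mcm6, Stmn1 was at 208 and 225 CPM (3.75 ± 0.30, adjusted p = 7.2e-13) and Hmgb2 at 71.9 and 63.5 against 25.8 and 29.0 CPM (1.10 ± 0.25). Stmn1 was thus high in mesothelium although only 2.55% and 3.18% of its cells were cycling. With aorta as a block Cdc20 was also called higher in blood endothelial cells (1.58) and Ube2c lower in mesothelial cells. All 3 shares of called members lay below the share over all genes.

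**Figure D5:**
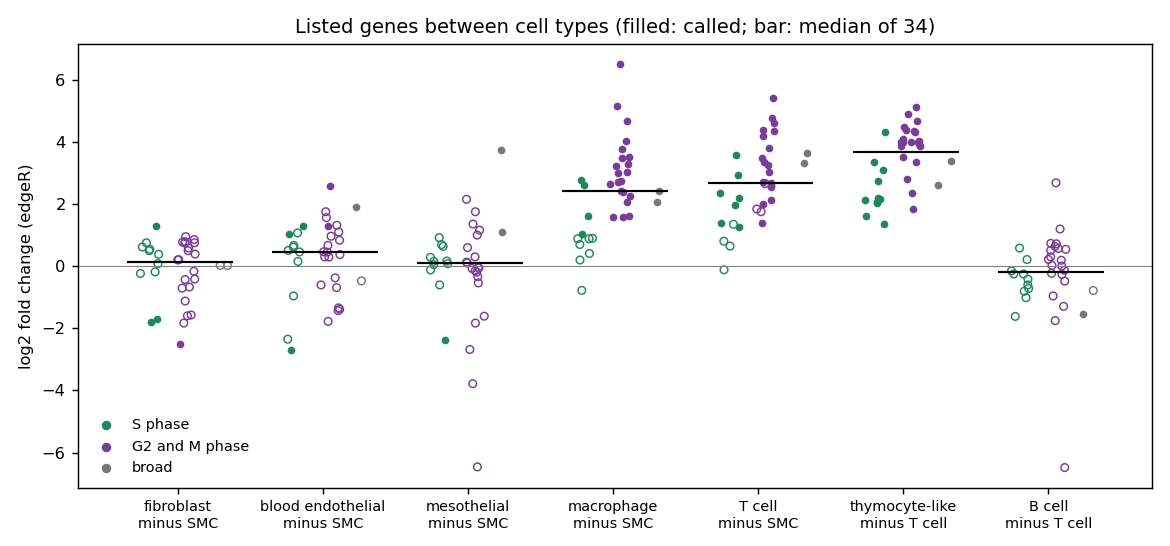
Log2 fold change (y axis) of each of the 34 genes in the 7 comparisons of cell types (x axis), by role, with filled points for called genes, open points for the others and a bar at the median. All 34 points are filled and above 0 in thymocyte-like against T cells, 27 are filled in each of the macrophage and T cell comparisons with SMCs, and the fibroblast, blood endothelial and mesothelial medians are 0.14, 0.46 and 0.09.

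T cells also differed from SMCs, with 27 of 34 genes called higher (18 G2 and M phase, 7 S phase and both broad genes; median 2.67, all genes -0.16), against 18.3% of all genes called higher and 45.8% either way. This result rested on aorta 1 for many genes. Mki67 was at 35.3 and 0 CPM in T cells against 0.240 and 1.90 CPM in SMCs (4.78 ± 0.79), and Ccnb2 at 22.9 and 0 against 0.120 and 1.73 CPM (4.34 ± 0.78), so the aortas overlapped. With aorta as a block Plk1 was called too (2.73). Without aorta 1 the median of the 34 genes was -0.43 and 13 of the 27 reversed. Hmgb2 was higher in T cells of both aortas, 385 and 208 against 25.8 and 29.0 CPM (3.64 ± 0.22), as were Mcm7 at 36.6 and 25.3 against 7.62 and 8.21 CPM (2.19 ± 0.24) and Cenpa at 41.8 and 26.8 against 3.06 and 4.41 CPM (3.47 ± 0.33). In the cycling T cells of aorta 1, 7 of which had 3 or more G2 and M phase genes and none in aorta 2, markers of NK cells or innate lymphoid cells summed to 2956 CPM against 725 CPM in the other T cells of that aorta, and SMC markers to 3033 against 638 CPM. Their part in the result was not tested.

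B cells and T cells differed in 1 of 34 genes, against 11.3% of all genes. Stmn1 was called lower in B cells, 20.4 and 72.7 CPM against 167 and 53.7 CPM in T cells (-1.54 ± 0.48, adjusted p = 0.026), with overlapping aortas, and without aorta 1 the change was 0.44. DESeq2 called none of the 34, of which 3 had an unadjusted p under 0.05.

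Genes that govern G1 rather than mark S phase or mitosis were followed as a list of 34, of which 29 were tested: cyclins D and E with their kinases, CDK inhibitors, the RB family and E2F factors. Between thymocyte-like and T cells 12 were higher and 1 lower (median 1.09), 44.8% of the 29 against 17.2% of all genes. E2f2, an activator E2F, was at 129 and 139 CPM against 5.88 and 1.58 CPM (4.32 ± 0.43), and E2f8 (3.74 ± 0.72), Foxm1, the activator of mitotic genes (14.1 and 21.8 against 1.31 and 0 CPM), and Ccne2 (3.55 ± 0.64) were also higher. Ccnd2, cyclin D2, was the gene that went the other way, 52.9 and 30 against 469 and 484 CPM (-3.97 ± 0.24, adjusted p = 1.1e-14).

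Cyclin D1 separated SMCs from the other wall cells and from macrophages. Ccnd1 was at 1.44 and 1.99 CPM in SMCs. Fibroblasts had it at 48.1 and 54.6 CPM (4.74 ± 0.21), blood endothelial cells at 59.7 and 35 CPM (4.60 ± 0.24), mesothelial cells at 67.5 and 54.6 CPM (4.97 ± 0.27) and macrophages at 106 and 96.9 CPM (5.89 ± 0.21). Ccnd2 was instead at 298 and 286 CPM in SMCs against 58.3 and 46.8 CPM in macrophages (-2.46 ± 0.16). Cdkn1c, the CDK inhibitor p57, was at 460 and 338 CPM in mesothelial cells and 148 and 143 CPM in fibroblasts against 29.1 and 29.7 CPM in SMCs (3.56 ± 0.15 and 2.15 ± 0.14). Cdkn1a, the inhibitor p21, was at 139 and 143 CPM in SMCs against 4.57 and 6.31 CPM in T cells (-4.64 ± 0.37). In no case did the aortas overlap. E2f1 was higher than in SMCs in fibroblasts (3.70 ± 0.30), mesothelial cells (2.46 ± 0.54) and macrophages (4.25 ± 0.31), and Cdk6 lower in fibroblasts (-1.31 ± 0.20, but -0.97 and not called with DESeq2). Over the 29 genes, 4 were higher and 1 lower in fibroblasts than in SMCs, 3 and 0 in blood endothelial cells, 5 and 2 in mesothelial cells, 9 and 3 in macrophages, 8 and 4 in T cells, and 1 higher and 2 lower in B than in T cells. These are 17.2%, 10.3%, 24.1%, 41.4%, 41.4% and 10.3% of the 29, each below the share of all genes called either way in the same comparison (24.6%, 29.0%, 28.1%, 42.7%, 45.8% and 11.3%). Called higher alone they were 31.0% in macrophages, above the 21.5% of all genes, and 27.6% in T cells, above 18.3%.

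A longer list of cycle genes outside the 34, of which 99 were tested, followed the same comparisons: 88 were higher and 1 lower in thymocyte-like than in T cells (median 3.03), 57 higher and 6 lower in macrophages and 58 higher and 4 lower in T cells than in SMCs (89.9%, 63.6% and 62.6% of the 99, against 17.2%, 42.7% and 45.8% of all genes), and 2 higher and 1 lower in B than in T cells. In fibroblasts, blood endothelial and mesothelial cells 6, 10 and 11 were higher and 5, 5 and 6 lower than in SMCs, 11.1%, 15.2% and 17.2% of the list and so below the 24.6%, 29.0% and 28.1% of all genes, as were the 3.03% in B against T cells beside 11.3%. The lower genes were led in these 3 types by Anln, anillin, a protein of the cleavage furrow, at 58.8 and 56.0 CPM in SMCs against 7.52 and 5.89 CPM in fibroblasts (-3.23 ± 0.18), 2.32 and 3.06 CPM in blood endothelial cells (-4.64 ± 0.29) and 0.553 and 4.96 CPM in mesothelial cells (-4.94 ± 0.38). Espl1, separase, was higher in macrophages than in SMCs, 23.8 and 21 against 0.780 and 0.691 CPM (4.84 ± 0.32), and in mesothelial cells (3.29 ± 0.48). Cdc6, which loads the helicase, was higher than in SMCs in fibroblasts (3.94 ± 0.53) and blood endothelial cells (4.70 ± 0.58), on no more than 5 UMIs in SMCs of both aortas together.

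Genes outside the 34 served to compare cycling cells with other cells of their type, since the rule had used the 34. In thymocyte-like cells 83 of the 104 genes of the longer list passed the filter on low counts, 67 of them only with the cycling cells, in which such genes have to be higher. All 83 were called higher, the other 16 included, where 18.2% of 4234 genes were called higher. DESeq2 called 65, Spc25 not among them. Spc24 and Spc25, of the kinetochore, and Kif15, a kinesin, had 329 and 303, 168 and 202, and 213 and 197 CPM in cycling cells and no UMI in the others. Of the G1 genes 9 of 18 tested were higher, 7 of them among the 10 that passed the filter only with the cycling cells, and 5 with DESeq2, which did not call Ccne1 or Rbl1. Among the 9 were Ccne2 (92.5 and 77.1 against 3.63 and 0 CPM), Ccne1 (54.8 and 48.2 against 3.63 and 0 CPM), Tfdp1, the E2F partner (3.45 ± 0.54), and Rbl1, the pocket protein p107 (2.49 ± 0.65). Outside all lists 645 of 4099 genes were called higher, 318 of them among the 703 that passed the filter only with the cycling cells. The leading gene there with UMIs on both sides was Pclaf, which binds Pcna, at 1330 and 1377 CPM against 7.26 and 0 CPM, the latter from 2 UMIs. Esco2, Ncapg2 and Neil3, of sister chromatid cohesion, chromosome condensation and DNA repair, had no UMI in the other cells. They passed the filter only with the cycling cells, in which they have to be higher. Their levels were at least 32.7-fold, 20.3-fold and 16.8-fold higher in cycling cells at 3 counts over the group. DESeq2 did not call Esco2.

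Markers of the thymocyte-like state itself differed inside that cluster. Rag1, of the recombinase that cuts T cell receptor genes, was at 298 and 270 CPM in cycling against 1659 and 1836 CPM in other cells (-2.35 ± 0.14), Trac at 141 and 72.2 against 650 and 707 CPM (-2.34 ± 0.22) and Cd8b1 at 977 and 1040 against 2956 and 3394 CPM (-1.40 ± 0.10). Arpp21 (-1.15 ± 0.12) was also lower, and Cd5 (-1.30 ± 0.30) by edgeR but not by DESeq2 (adjusted p = 0.092). Rag2, Dntt, Ptcra, Cd3e, Cd3d, Cd3g, Trbc2 and Lat were not called. Rag2, the partner of Rag1, was at 85.7 and 86.7 against 171 and 177 CPM (-0.76 ± 0.30).

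In macrophages 38 of the 70 genes tested of the longer list passed the filter only with the cycling cells, and 35 of these 38 and 13 of the other 32 were called higher in cycling cells (48 together; DESeq2 25), where 2.10% of 9388 genes were called higher, and none of 25 G1 genes was called by edgeR (5 at an unadjusted p under 0.05) or by DESeq2 (1). Cdkn1a was called higher there with 8 or more genes (1.59), with doublets kept (1.03) and without cells bearing markers of another lineage (1.03), and Foxm1 with no upper UMI limit (3.12). Hmmr, a spindle protein, was at 24.3 and 25.4 against 0.237 and 0 CPM and Cdca3 at 32.4 and 23.4 against 0.237 and 0.820 CPM, with 1 UMI and 3 UMIs in all other macrophages. Outside all lists 117 of 9261 genes were called higher, 35 of them among the 571 that passed the filter only with the cycling cells. Aspm (21.6 and 35.1 against 0.474 and 0 CPM), Cdkn3 (5.19 ± 0.50) and Pclaf (4.23 ± 0.49), all known from dividing cells, led. With 2 and 0, 5 and 2, and 3 and 6 UMIs in other macrophages, these genes passed the filter only with the cycling cells. Marco, a scavenger receptor, was at 366 and 347 against 61.2 and 6.97 CPM (3.42 ± 0.36), but it was found in only 5 of 68 and 6 of 50 cycling cells, with up to 119 and 90 UMIs in 1 cell, and it is a leading gene of the deepest macrophage cluster. Hdc, histidine decarboxylase, was also higher (3.39 ± 0.52), in 8 of 68 and 4 of 50 cells.

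In SMCs 16 of the 56 genes tested passed the filter only with the cycling cells, and 10 of these 16 and 8 of the other 40 were called higher in cycling cells (18 together; DESeq2 15), where 0.580% of 11733 genes were called higher, and none of 26 G1 genes was called by either tool (4 at an unadjusted p under 0.05 by each), although Cdkn1a and Cdkn2c were with no upper UMI limit (1.47 and 1.72) and with doublets kept (1.51 and 1.90), and Cdkn2d with no upper UMI limit (1.15). Without cells bearing markers of another lineage 16 were higher. Spc24 was at 19.1 and 81.1 CPM against 0.426 and 0.353 CPM (6.67 ± 1.00) and Racgap1, of cytokinesis, at 19.1 and 24.3 against 0.243 and 0.177 CPM (6.47 ± 1.38), each in 3 cycling SMCs of aorta 2 and in 1 and 2 of aorta 1. For Spc24, 17 of the 20 UMIs of aorta 2 and all 4 of aorta 1 were in 1 cell. Outside all lists 32 of 11625 genes were called higher, 9 of them among the 301 that passed the filter only with the cycling cells. Timp1, an inhibitor of metalloproteinases outside the lists, had 33 and 71 UMIs in cycling SMCs (158 and 288 against 17.3 and 18.2 CPM, 3.54 ± 0.28), but 68 of the 71 UMIs of aorta 2 were in 1 cell. Lgals3, galectin-3, was detected in 8 of 15 and 9 of 22 cycling SMCs against 17.5% and 19.1% of other SMCs (1.90 ± 0.23). Its levels were 373 against 50.8 CPM in aorta 1, with 31 of 78 UMIs in 1 cell, and 89.2 against 56.9 CPM in aorta 2, so the size of the change rested on aorta 1. Vcam1 was found in 6 of 15 and 3 of 22 against 5.19% and 5.04% (2.14 ± 0.33), with 14 of 29 and 10 of 17 UMIs in 1 cell of each aorta. Selenoh (1.57 ± 0.29) was also higher, with 13 of 20 and 18 of 38 UMIs in 1 cell and detection in 5 of 15 and 10 of 22 cycling against 22.9% and 25.4% of other SMCs, and Jpt1 (1.48 ± 0.32) by edgeR but not by DESeq2 (adjusted p = 0.18). Cycling SMCs were deeper than the others, 12207 against 7693 UMIs at the median. Limiting the other cells to those at least as deep as the shallowest cycling cell of the same type and aorta, 3312 and 1789 UMIs in SMCs, left 18 genes of the longer list called, but that limit is far below the median of either group, and the part of depth in these calls was not tested further.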

How the data were processed

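Single-cell RNA-seq was available for thoracic aortas of 2 GFPiSMC mice, 1 library each. The deposited matrices hold raw UMI counts per gene and cell, made by the authors with Cell Ranger 4.0.0 (matrix header) on mm10 with eGFP and tdTomato added, and the submitters' processing notes also name Seurat 4.0, whose output was not used. The authors made their cells-of-interest filter at 5000 to 25000 UMIs; the main filter here kept cells with at least 200 genes, 1000 to 25000 UMIs and under 10% mitochondrial UMIs, because the lower limit removes small lymphocytes, and 5000 was run as an alternative.

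Doublets predicted by Scrublet in each aorta were removed. Cells were clustered with scanpy 1.11.5 (2000 variable genes, of which 1959 remained without the cycle genes, 30 components, 15 neighbours, Leiden resolution 1) and named from at least 3 markers found in 25% of cells. UMIs were summed per aorta and type (at least 10 cells in each aorta), and CPM are those sums per 1000000 UMIs of the sum. edgeR 4.0.16 (TMM, filterByExpr, quasi-likelihood test, Benjamini-Hochberg adjustment over all genes tested) compared types, and cycling with other cells of a type with aorta as a term. A call needed an adjusted p below 0.05 together with a log2 fold change beyond 1 in either direction, and DESeq2 1.42.0 was the alternative. The sums of 1 aorta come from the same animal, which pairs the types by origin; over 55 pairs of types the deviations of sums from the same aorta had a median correlation of 0.02 (-0.03 to 0.18), and a fit with aorta as a block was an alternative between types. On simulated counts with 200 changed genes the fit between types recovered 100% of 4-fold and 29.0% of 2-fold changes over 10591 genes with 5.84% false calls, and the fit for cycling thymocyte-like cells 82.0% and 22.0% over 4066 genes with 4.59%. The simulation gave all sums 1 profile and no aorta effect, with a dispersion of 0.05 (fitted values 0.00709 and 0.00347). Only genes with many UMIs were changed, and hits were counted by adjusted p alone. These rates therefore do not describe calls on few UMIs or calls by both thresholds.

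All 34 members are given. From the G1 and longer lists at most the 5 called genes with the largest absolute change in a comparison are named, and outside the lists at most the 5 called with the largest rise in cycling cells and 10 UMIs in each aorta; lists and members were chosen with earlier results of these data known, and thymocyte markers inside the cluster and individual examples beyond these rules were picked after their values were seen. Shares have exact 95% binomial intervals, a share of 0 also has the limit that 3 counts of the total give, and thinning to 2000 UMIs drew UMIs without replacement. Levels from 3′ end counts are not compared between genes, except that UMI totals chose the promoters shown. Of the genes these limits allow, some are given only within counts, and 1 is not reported here.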

Additional observations from a re-analysis of the deposited data

Results flagged for a closer look

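Cells that no comparison above used also passed the 5 gene rule. Among cells over 25000 UMIs, which the filter removed, 13 of 23 in aorta 1 (56.5%) and 5 of 7 in aorta 2 (71.4%) had 5 or more of the 34 genes. Among predicted doublets 14 of 205 in aorta 1 (6.83%) and 6 of 84 in aorta 2 (7.14%) did. An unnamed cluster led by Ccr2, Plbd1, Ear2 and Plac8, genes of monocytes and related cells, had 20 of 129 cells (15.5%) in aorta 1 and 13 of 88 (14.8%) in aorta 2, and 3.17% and 2.38% of its cells after thinning to 2000 UMIs.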

How the results depend on the processing

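The mean cycling shares moved with the rule and with depth, and the cause was not tested. With 3 or more genes they were 39.1% in thymocyte-like cells, 35.1% in macrophages, 24.0% in T cells, 11.9% in SMCs and 9.16% in fibroblasts. With 8 or more genes they were 18.2%, 3.24%, 1.33% and 0.237% in the first 4 of these types, with G2 and M phase genes only 15.8%, 1.78%, 1.17% and 0.182%, with at least 2 UMIs a gene 17.9%, 2.44%, 1.17% and 0.150%, and without Stmn1 and Hmgb2 19.5%, 6.03%, 2.20% and 0.528%. In these 4 settings fibroblasts had 0.311%, 0.280%, 0.311% and 0.504%, above SMCs except in the last. Thinned to 2000 UMIs the shares of the first 4 types were 27.3%, 2.74%, 1.35% and 0.161%, and that of fibroblasts 0.253%. Thinned to 1000 UMIs, an alternative added after seeing the data, they were 16.2%, 1.53%, 0.833% and 0.150%, and 0.118% in fibroblasts. With 5000 to 25000 UMIs thymocyte-like cells reached 88.3%, macrophages 14.97% and T cells 8.21%, and the order of types changed, with monocytes or neutrophils at 18.8% above macrophages and B cells at 13.1% above T cells. That filter dropped most thymocyte-like cells, whose median depth in the main run was 2282 and 2394 UMIs, and clustered the rest anew. The 88.3% is therefore not the share of the same population at higher depth. Thymocyte-like cells had 19.8% at Leiden resolution 2, 19.998% with doublets kept and 22.7% with no upper UMI limit. Leaving out each aorta gave 20.9% to 21.8%, 8.41% to 10.4%, 3.62% to 5.33%, 0.684% to 1.40% and 0.308% to 1.05%.

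Counts of called members moved by over 1.5 times in 4 of the 7 comparisons. Fibroblasts against SMCs had 8 with no gene filter, 7 with 5000 to 25000 UMIs and 7 at Leiden resolution 2, blood endothelial cells 10 and mesothelial cells 6 with no gene filter, and B against T cells 0 with DESeq2, and 0 by edgeR with 5000 to 25000 UMIs and at Leiden resolution 2, where 3, 2 and 5 members had an unadjusted p under 0.05. G1 genes in blood endothelial cells were 5 with DESeq2 size factors, 6 with DESeq2, 5 with no gene filter and 6 with 5000 to 25000 UMIs. Genes of the longer list in cycling macrophages were 25 with DESeq2 and 75 with no upper UMI limit. With aorta as a replicate block 6, 7, 4, 27, 28, 34 and 1 members were called in fibroblasts, blood endothelial, mesothelial cells, macrophages and T cells against SMCs, thymocyte-like against T cells and B against T cells, and with no replicate block 48, 17 and 83 genes of the longer list in cycling macrophages, SMCs and thymocyte-like cells, and no count moved by more than 1.5 times. Over 102 called members and comparisons and 12 settings, 1168 of 1224 values kept their direction and side of the threshold, 42 lost the call and 14 reversed, the causes of which were not tested. Leaving out replicate 1 and then replicate 2 gave T cell minus SMC log2 changes of -5.32 and 7.07 for Mki67, -5.19 and 7.28 for Ccnb2, -4.48 and 3.79 for Ccna2, -5.50 and 5.68 for Birc5, -3.30 and 3.36 for Aurka, -2.18 and 5.69 for Bub1, -3.02 and 4.97 for Bub1b, -4.48 and 3.78 for Cenpe, -6.30 and 4.09 for Cenpf, -5.26 and 4.22 for Nusap1, -1.29 and 2.01 for Tpx2, -7.06 and 4.01 for Ube2c and -4.23 and 3.93 for Rrm2, and B cell minus T cell changes of 0.44 and -3.10 for Stmn1, where the value against a sum of 0 depends on the prior count. Cycling SMCs at 8 or more genes were not run, as too few cells remained.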
